A study of Mus musculus with 13 samples.

Results

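Hepatocytes around the central vein of the liver lobule express a set of genes that depend on Wnt signalling, and 10 of these genes were followed here: Glul, Oat, Axin2, Lgr5, Tbx3, Rgn, Lect2, Slc1a2, Rhbg and Cyp2e1. They were chosen by name, and for each gene the brightest probe set that names only that gene was read. All 10 were found among the 19938 genes named on the array. The RNA came from whole liver of male wildtype C57BL/6N mice aged 5 to 6 months. The STZ group (6 mice) had received streptozotocin, a toxin of the insulin-producing beta cells, by intraperitoneal injection at 65 mg/kg on 5 consecutive days at an age of 10 to 16 weeks. The control group (7 mice) had received citrate buffer in the same way, and livers of both groups were collected 9 to 11 weeks later. The series design text instead describes the controls by a standard diet. Each mouse gave 1 Affymetrix array, and the series asks how liver mitochondrial function adapts to diabetic states.

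Wnt ligands released by endothelial cells of the central vein bind Frizzled and LRP receptors on the neighbouring hepatocytes. This keeps beta-catenin from being degraded, so that it switches on genes together with TCF factors. R-spondins amplify the Wnt signal through receptors such as Lgr5. The pericentral hepatocytes made in this way capture ammonia that escapes the urea cycle and fix it as glutamine, and they carry much of the drug-oxidising capacity of the liver. Genes of urea synthesis and gluconeogenesis lie on the opposite, periportal side, where beta-catenin activity is low. Whole-liver RNA carries no position within the lobule, and a lower value from fewer pericentral cells cannot be told apart from less RNA per cell.

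The values are log2 intensities after robust multi-array average (RMA), and differences are STZ minus control on that scale, with the standard error (SE) of the fit. They were tested with limma, a linear model over all genes, and a gene passed at a Benjamini-Hochberg adjusted p under 0.05 over the 19938 genes. Array medians ranged from 6.22 to 6.31, and Pearson correlations across genes ranged from 0.982 to 0.997 over all pairs of arrays. The hepatocyte markers checked were bright, with a summed linear intensity over 8 genes of 70990 to 74150 in controls and 70710 to 73350 in STZ livers. An array has no sequencing depth, and precision depends on how many livers were measured and on how far they spread. With the same livers, the SE of the 10 genes ran from 0.04 for Cyp2e1 to 0.17 for Rhbg.

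Promoter sequence was examined for the core of the TCF recognition motif, CTTTGA or its reverse complement TCAAAG, in the 250 bases upstream of the RefSeq transcript start (GRCm38.p6). The table used here gave this window for 6 of the 10 genes, Axin2, Cyp2e1, Glul, Lect2, Oat and Slc1a2, and 3 of the 6 held the core. Slc1a2 held it at 2 places, beginning 206 and 77 bases upstream, Cyp2e1 at 1 place (135 bases) and Lect2 at 1 place (31 bases). Of all 32851 windows of this length, 13.8% held at least 1 core and 1.37% held 2 or more. The windows of Slc1a2, Cyp2e1 and Lect2 are shown because they hold the core, and those of Oat and Axin2 because these genes were higher in STZ livers without holding it. Each reads 5′ to 3′ in the direction of the gene, with the core in capitals.
Slc1a2 (chr2:102706188-102706437, plus strand): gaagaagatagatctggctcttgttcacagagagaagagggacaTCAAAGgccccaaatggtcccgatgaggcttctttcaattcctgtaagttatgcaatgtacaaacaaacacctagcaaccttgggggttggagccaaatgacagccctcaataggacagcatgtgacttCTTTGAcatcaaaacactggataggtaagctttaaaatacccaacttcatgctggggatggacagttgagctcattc
Cyp2e1 (chr7:140763569-140763818, plus strand): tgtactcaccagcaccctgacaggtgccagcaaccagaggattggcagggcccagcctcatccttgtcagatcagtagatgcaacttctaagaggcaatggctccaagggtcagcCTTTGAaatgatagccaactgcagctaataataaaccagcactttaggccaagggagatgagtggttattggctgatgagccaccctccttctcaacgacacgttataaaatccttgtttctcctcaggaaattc
Lect2 (chr13:56548539-56548788, minus strand): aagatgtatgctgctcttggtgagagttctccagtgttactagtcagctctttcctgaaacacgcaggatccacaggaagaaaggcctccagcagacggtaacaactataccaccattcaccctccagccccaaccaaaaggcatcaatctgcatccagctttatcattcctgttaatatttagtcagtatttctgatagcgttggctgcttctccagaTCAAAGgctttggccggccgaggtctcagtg
Oat (chr7:132576399-132576648, minus strand): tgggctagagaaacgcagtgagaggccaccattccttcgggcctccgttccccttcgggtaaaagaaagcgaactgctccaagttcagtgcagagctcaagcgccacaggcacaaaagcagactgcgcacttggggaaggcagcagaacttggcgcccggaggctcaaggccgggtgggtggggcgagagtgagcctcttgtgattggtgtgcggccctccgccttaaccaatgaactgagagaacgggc
Axin2 (chr11:108920099-108920348, plus strand): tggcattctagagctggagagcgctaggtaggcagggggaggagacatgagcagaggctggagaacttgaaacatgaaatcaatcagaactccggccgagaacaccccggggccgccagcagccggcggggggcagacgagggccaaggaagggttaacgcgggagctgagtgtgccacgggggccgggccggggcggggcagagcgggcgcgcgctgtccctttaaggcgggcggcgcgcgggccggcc
The Slc1a2 and Axin2 windows lie inside the annotated gene spans (chromosome 2, 102658239 to 102790784, and chromosome 11, 108917828 to 108950783). The last bases of the Lect2 window also lie inside the span of that gene (chromosome 13, 56529734 to 56548559). A match is a run of letters and not a measured binding site, and which starts these livers used was not tested.

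In STZ livers Oat, Axin2 and Slc1a2 rose and Rgn fell, while Glul, Lgr5, Tbx3, Lect2, Rhbg and Cyp2e1 did not pass. The 4 genes that passed in limma are 4 of 10, against 9.12% of all 19938 genes. All 10 are brighter than the median gene. In a limma fit of the 9969 genes above the median alone, 1857 passed, with the same 4 of 10. The 3 that rose stand against 5.09% of all genes that rose, and the 1 that fell against 4.04% that fell. The median difference of the 10 genes was 0.11, and that of all genes -0.01. Only for Oat did the 6 STZ and 7 control livers not overlap, 1 gene of 10 against 3.86% of all genes. In the exact permutation test over all splits of the livers, adjusted over all genes, Oat, Axin2 and Slc1a2 passed, 3 of 10 against 7.21%. No gene of the set reached a difference of 1 log2 unit, and differences ran from -0.42 to 0.52 on the log2 scale.

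**Figure D1:**
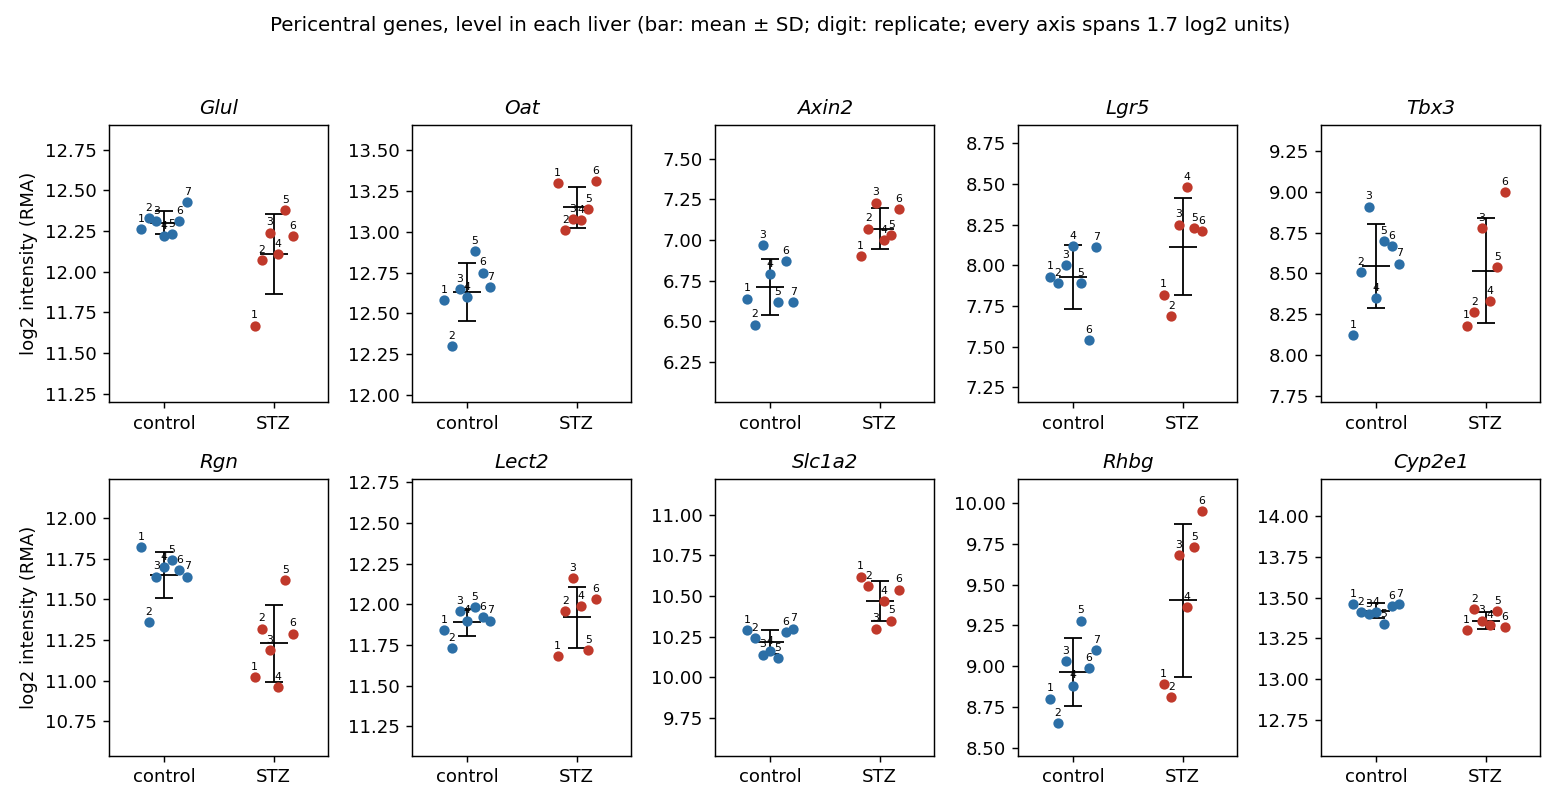
Log2 intensity of each of the 10 pericentral genes in each liver (points, with the replicate number beside each), with mean and SD as bars, for 7 control (blue) and 6 STZ (red) livers; every axis spans the same number of log2 units. Oat was higher in every STZ liver than in any control, while Rhbg and Lgr5 in STZ replicates 1 and 2 lay among the controls.

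Ammonia and glutamate handling was represented by Glul, Oat, Slc1a2 and Rhbg. Oat encodes ornithine aminotransferase, a mitochondrial enzyme that turns ornithine into a precursor of glutamate and proline. Its level was 12.30 at the lowest, 12.65 at the median and 12.88 at the highest of the 7 controls, and 13.01, 13.11 and 13.31 in the 6 STZ livers. All 6 STZ livers lay above all 7 controls. Oat rose by 0.52 ± 0.08 (SE), which is 1.43-fold (95% interval 1.27 to 1.61), with an adjusted p of 0.000604 in limma, and it passed in each of the 13 fits that left out 1 array.

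Slc1a2 encodes the glutamate transporter GLT-1, which in the liver brings glutamate into pericentral hepatocytes. Its level was 10.12, 10.24 and 10.30 (lowest, median and highest) in controls and 10.30, 10.50 and 10.62 in STZ livers. STZ replicate 3, at 10.30, touched the top of the control range, and the other 5 STZ livers lay above it. Slc1a2 rose by 0.25 ± 0.06, or 1.19-fold (95% interval 1.09 to 1.30), with an adjusted p of 0.0125 in limma. The 3 genes whose deviations from the group means were most like those of Slc1a2 over the 13 livers were the chemokine gene Ccl5 (Pearson r = 0.90, Spearman rho = 0.90), Arhgef6 (r = 0.89, rho = 0.76) and the methyltransferase gene Nnmt (r = 0.89, rho = 0.87). These were the closest of all named genes, so the size of r is a description only. Of 11 markers of Kupffer and other immune cells, 5 passed as higher in STZ livers and 0 as lower. The largest differences among these 5 were those of Cd5l (0.62), Cd68 (0.47), Vsig4 (0.41) and Ptprc (0.31). The 6 that did not pass were Adgre1 (0.40), Csf1r (0.35), Timd4 (0.14), Itgam (0.14), Cd3e (-0.04) and Cd79a (-0.17). The summed linear intensity of the 11 markers was 4446 to 5841 in controls and 4878 to 7866 in STZ livers. The part of these cells in the Slc1a2 difference was not tested. That count of 5 fell to 1 without STZ replicate 6, to 2 without STZ replicate 1, STZ replicate 4 or control replicate 7, and to 3 without control replicate 1, 4 or 5. It was 0 in the exact permutation test.

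Glul encodes glutamine synthetase, which joins ammonia to glutamate and is the textbook marker of the hepatocytes next to the central vein. It has 2 probe sets on this array. The brighter, used by the rule, measured 12.22, 12.31 and 12.43 (lowest, median and highest) in controls and 11.67, 12.16 and 12.38 in STZ livers. STZ replicate 1 was the lowest at 11.67, followed by STZ replicates 2 at 12.07 and 4 at 12.11, and STZ replicate 5 lay inside the control range. The difference was -0.18 ± 0.09 with an adjusted p of 0.246 in limma, and without STZ replicate 1 it was -0.095. The SD was 0.07 in controls and 0.25 in STZ livers.

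The other Glul probe set measured 11.78 at the lowest and 11.97 at the highest control. The STZ livers gave 11.06, 11.62, 11.77, 11.52, 11.91 and 11.72 for replicates 1 to 6, and 5 of the 6 lay below all controls. Its difference was -0.25, with an adjusted p of 0.151 in limma when it took the place of the brighter probe set, an alternative added after the data were seen. The exact 2-sided permutation test gave p = 0.0169 for this probe set and 0.0478 for the brighter, both unadjusted. Probe-set numbers on this array follow the chromosomes, and 18 of the 20 named genes nearest in number to the dimmer probe set lie on chromosome 1, as Glul does. Of the 20 nearest to the brighter, 19 lie on chromosome 11. For the remaining genes of the set, at least 18 of the 20 neighbours lay on the gene's own chromosome. What the brighter Glul probe set measures besides Glul was not tested, and neither probe set passed.

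Rhbg encodes an ammonia transport protein of the basolateral hepatocyte membrane. Its level was 8.65, 9.00 and 9.28 (lowest, median and highest) in controls. In STZ livers it was 8.89 and 8.81 in replicates 1 and 2, and 9.68, 9.36, 9.73 and 9.95 in replicates 3 to 6. The first pair lay among the controls and the other 4 livers above all of them, which gave Rhbg a larger STZ SD (0.47) than 98.4% of all genes. The difference was 0.44 ± 0.17 (95% interval 0.09 to 0.79) with an adjusted p of 0.120 in limma. Without STZ replicate 1 the difference was 0.55 with an adjusted p of 0.0490, and without STZ replicate 2 it was 0.56 with 0.0315. With all 13 livers Rhbg passed under array weights (0.51, adjusted p = 0.0485). It also passed with the replicate number as a block (0.46, adjusted p = 0.0242), a fit without control replicate 7. With STZ replicates 1 to 4 only it was 0.22 with an adjusted p of 0.456.

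Of 13 other genes of glutamine and ammonia handling, 1 passed (7.69%, against 9.12% of all genes). It was Slc25a15, the mitochondrial ornithine carrier that supplies the compartment of Oat, which rose by 0.61 ± 0.08 with an adjusted p of 0.000177 in limma. The list median was -0.01. The count was 2 in place of 1 without STZ replicate 2, STZ replicate 5 or control replicate 6. With array weights Aldh18a1 also made it 2. Slc38a2 did so with STZ replicates 1 to 4 only, with the replicate block and with only the genes brighter than the median gene. Glutamate dehydrogenase Glud1 (-0.04) and the glutamine transporter Slc38a3 (-0.07) did not pass. Among relatives of the 10 genes in their own families, 1 of 23 passed, the neutral amino acid transporter Slc1a4 (0.46 ± 0.13, adjusted p = 0.0302 in limma), which passed in 6 of the 13 fits that left out 1 array and had an adjusted p of 0.102 in the exact permutation test. The other glutamate transporters Slc1a1 (0.05) and Slc1a3 (-0.05) and the Rh protein Rhcg (-0.01) did not pass.

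**Figure D2:**
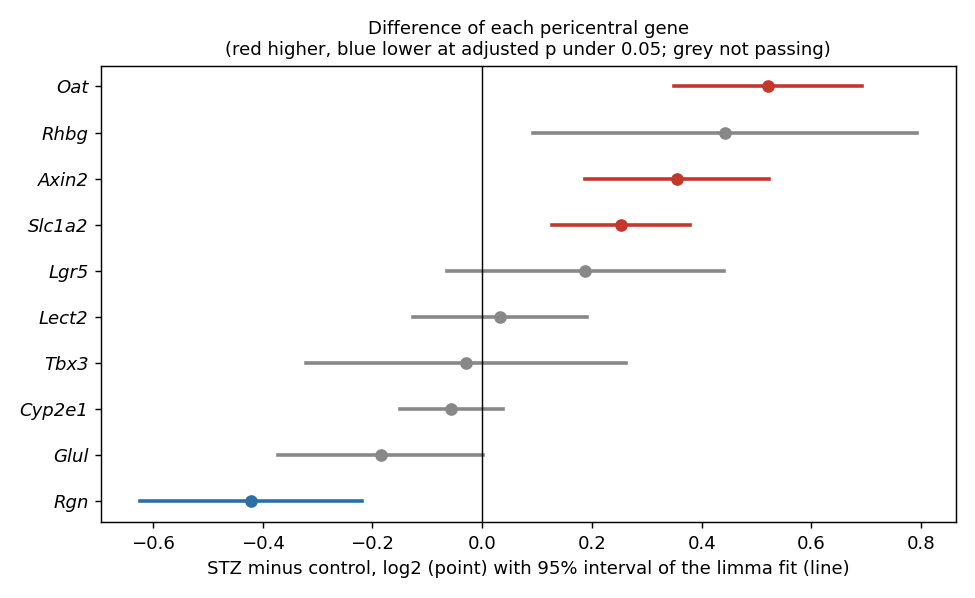
Difference between STZ and control for each of the 10 genes on the log2 scale (points) with the 95% interval of the limma fit (lines). Oat, Axin2 and Slc1a2 are red (higher) and Rgn is blue (lower); the interval of Rhbg excludes 0 although its adjusted p of 0.120 does not pass, and the interval of Cyp2e1 is the narrowest.

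Axin2, Lgr5 and Tbx3 represent the Wnt response itself. Axin2 encodes a scaffold of the complex that marks beta-catenin for destruction, and its transcription is induced by beta-catenin as negative feedback. Its level was 6.48, 6.64 and 6.97 (lowest, median and highest) in controls and 6.90, 7.05 and 7.23 in STZ livers. STZ replicate 1, at 6.90, lay under the highest control, and the other 5 STZ livers lay above all controls. Axin2 rose by 0.36 ± 0.08, or 1.28-fold (95% interval 1.14 to 1.44), with an adjusted p of 0.00873 in limma. Its level was brighter than 54.0% of all genes, and arrays compress differences of dim genes.

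Lgr5 encodes an R-spondin receptor that in the resting liver marks the hepatocytes next to the central vein. Its level was 7.54, 7.93 and 8.12 (lowest, median and highest) in controls and 7.69, 8.22 and 8.48 in STZ livers. STZ replicates 1 and 2, at 7.82 and 7.69, lay under most controls, and the other 4 STZ livers, at 8.21 to 8.48, lay above all controls. The difference was 0.19 ± 0.12 with an adjusted p of 0.419 in limma. Tbx3, a T-box transcription factor and beta-catenin target, measured 8.12, 8.56 and 8.91 in controls and 8.18, 8.44 and 9.00 in STZ livers. Its groups overlapped almost entirely, with a difference of -0.03 ± 0.14 (95% interval -0.32 to 0.26) and an adjusted p of 0.944 in limma.

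Among other Wnt pathway genes, Rspo3, Znrf3 and Notum rose and Fzd7 fell, 4 of 80 in 4 lists. That share of 5.0% lies under the 9.12% of all genes that passed in limma, and the list medians ran from -0.02 to 0.06. In the exact permutation test 7 of the 80 passed, against 7.21% of all genes, so the share was not lower there. Of 24 Wnt ligands, R-spondins and secretion factors, 1 rose, Rspo3, with a list median of -0.02. Rspo3 encodes the R-spondin that sinusoidal and central vein endothelium and stellate cells release, and it amplifies Wnt signals by removing Znrf3 and Rnf43 from the membrane. Its level was 7.15, 7.26 and 7.48 (lowest, median and highest) in controls and 7.49, 7.76 and 7.96 in STZ livers, without overlap. Rspo3 rose by 0.46 ± 0.07, with an adjusted p of 0.000625 in limma. The central vein ligands Wnt2 (0.27 ± 0.12, adjusted p = 0.186) and Wnt9b (0.07 ± 0.07, 0.667) did not pass in limma. Without STZ replicate 1, Wnt2 also passed at 0.0406.

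Markers of central vein and sinusoidal endothelium, a list that holds Rspo3, were higher for 2 of 14, Rspo3 and Lyve1 (0.50 ± 0.11, adjusted p = 0.00967 in limma), and without STZ replicate 1 for 4. The count was 1 in the exact permutation test, where Lyve1 had an adjusted p of 0.0706. Their summed linear intensity was 5729 to 6125 in controls and 6008 to 6499 in STZ livers, and their mean log2 level 7.90 to 7.96 and 8.0 to 8.23. None of the 14 (0) lay under the lower quartile of gene levels. Stellate cell markers had 1 of 9 higher, Dcn (0.35 ± 0.06), and 1 lower, the retinol-esterifying enzyme Lrat (-0.47 ± 0.08), with summed intensities of 5360 to 5846 and 5831 to 6985. The part of these cells in the Rspo3 difference was not tested.

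Of 17 Wnt and R-spondin receptors, 1 fell, the Frizzled receptor Fzd7, and the list median was -0.01. Without control replicate 3 the count was 2. Fzd7 measured 7.58, 7.76 and 8.07 (lowest, median and highest) in controls and 6.94, 7.38 and 7.58 in STZ livers, and no STZ liver reached the lowest control, although STZ replicate 5 lay just under it. It fell by 0.46 on the log2 scale (SE 0.10, adjusted p = 0.00575 in limma). The R-spondin receptor Lgr4 (-0.04 ± 0.08) did not pass.

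Of 26 inhibitors and destruction complex genes, 2 rose in limma, Znrf3 and Notum, at a list median of 0.03. The exact permutation test called 3, these 2 and the casein kinase Csnk1a1 (0.11, adjusted p = 0.044 in that test). Znrf3 encodes the ubiquitin ligase that removes Frizzled receptors from the membrane and is itself a Wnt target. It measured 7.67, 7.88 and 8.02 (lowest, median and highest) in controls and 8.26, 8.38 and 8.77 in STZ livers, without overlap, and rose by 0.55 ± 0.08 (adjusted p = 0.000339 in limma). Notum encodes an enzyme that inactivates secreted Wnt proteins. It measured 7.21, 7.40 and 7.60 in controls and 7.51, 7.72 and 8.01 in STZ livers, where 4 of 6 lay above all controls, and it rose by 0.37 ± 0.08 (adjusted p = 0.0110 in limma). Axin1, the constitutive relative of Axin2, was 0.18 ± 0.06 with an adjusted p of 0.0542 in limma. Axin1 passed in 3 of the 13 fits that left out 1 array. It also passed in the fit of the genes brighter than the median gene (adjusted p = 0.0294). The limma count of the list was 3 in these fits. Rnf43, the partner of Znrf3, was 0.08 ± 0.10 and did not pass, nor did the feedback inhibitor Nkd1 (0.05).

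None of the 13 transducers measured passed in limma (0 of 13, with 3 at an unadjusted p under 0.05). The exact permutation test called 2, Dvl1 and Csnk1d (adjusted p = 0.0324 for each). In limma 1 gene, Csnk1e, passed when STZ replicate 6 was left out and with STZ replicates 1 to 4 only (adjusted p = 0.0320 and 0.0333). Csnk1d and Csnk1e are casein kinases, named here after their values were seen. The list median was 0.06. Beta-catenin itself, Ctnnb1, was at 10.56 ± 0.10 (SD, n = 7) in controls and 10.55 ± 0.08 (SD, n = 6) in STZ livers, a difference of -0.01 ± 0.06 (95% interval -0.13 to 0.11). Its main partner in hepatocytes, Tcf7l2, was 0.08 ± 0.07 (95% interval -0.07 to 0.23). The smallest limma p of the list belonged to the Dishevelled gene Dvl1 (0.15 ± 0.05, adjusted p = 0.0976 in limma). Messenger RNA levels carry no measure of beta-catenin protein or of its place in the cell.

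**Figure D3:**
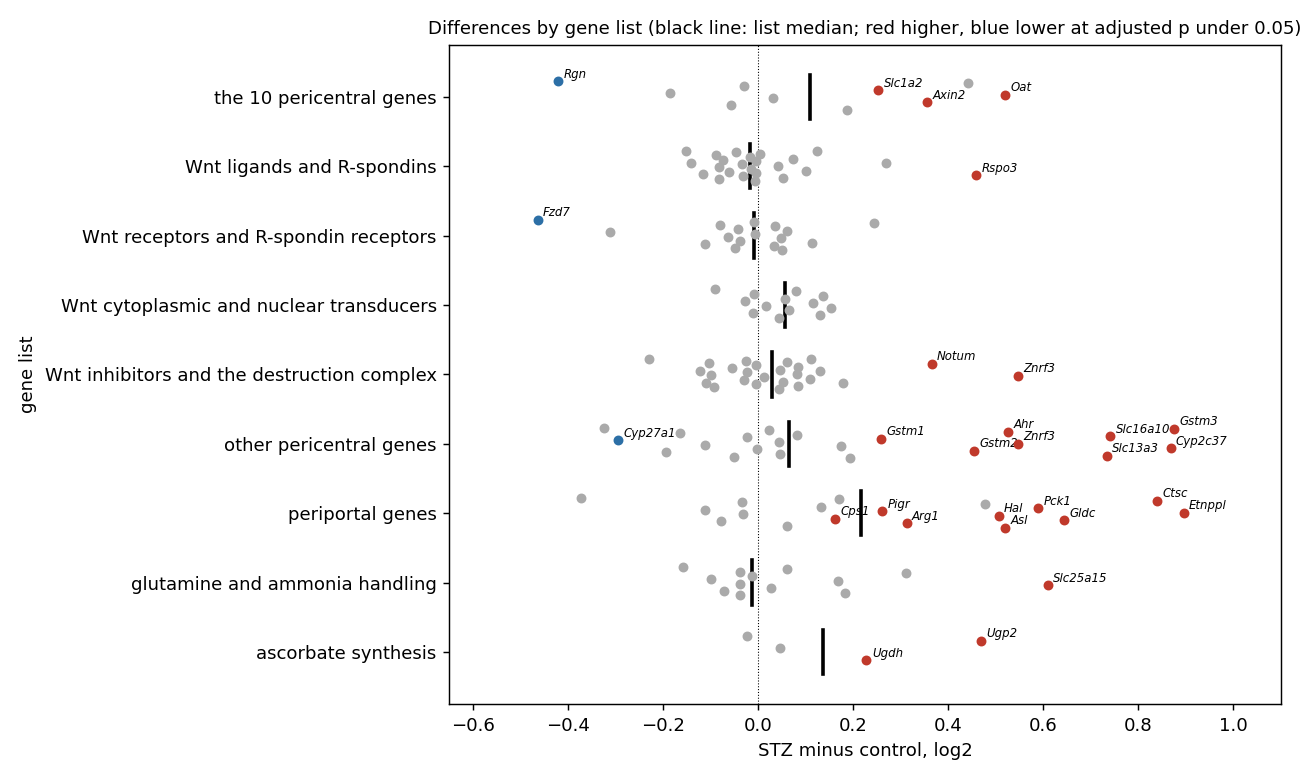
Difference between STZ and control on the log2 scale for each measured gene (points) of the 10 pericentral genes and of 8 related lists, with the list median as a black line; genes that passed in limma are coloured and named. Wnt pathway lists centre near 0 with 4 calls together (Rspo3, Fzd7, Notum, Znrf3), while the periportal list has a median of 0.22 and 9 calls, all higher.

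Rgn, Lect2 and Cyp2e1 are hepatocyte products of the pericentral zone. Rgn encodes regucalcin, a calcium-binding lactonase that acts in the synthesis of vitamin C. Its level was 11.36, 11.68 and 11.82 (lowest, median and highest) in controls and 10.96, 11.24 and 11.62 in STZ livers. STZ replicate 5, at 11.62, lay among the controls, and the other 5 STZ livers lay below all 7 controls. Rgn fell by 0.42 on the log2 scale (SE 0.10), to 0.747-fold of control (95% interval 0.649 to 0.860), with an adjusted p of 0.00999 in limma. In the exact permutation test adjusted over all genes it was 0.0531, so that call was lost there.

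The remaining genes of vitamin C synthesis did not fall with it. Of 4 measured, Ugp2 (0.47 ± 0.08, adjusted p = 0.00124 in limma) and Ugdh (0.23 ± 0.06, adjusted p = 0.0320) rose, and Ugdh passed in 5 of the 13 fits that left out 1 array. Gulo, the last enzyme of the pathway, was at 11.81 ± 0.05 (SD, n = 7) and 11.79 ± 0.11 (SD, n = 6), a difference of -0.02 ± 0.06. The genes most like Rgn in their deviations from the group means over the 13 livers were the glutathione transferase Mgst1 (r = 0.95, rho = 0.82), Tmem30a (r = 0.89, rho = 0.58) and the exporter Abcg2 (r = 0.88, rho = 0.92). Without the 2 livers farthest from the median of Rgn these r values were 0.89, 0.76 and 0.79.

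Cyp2e1 encodes the cytochrome P450 that oxidises ethanol, acetone and paracetamol. Its level was 13.34, 13.41 and 13.46 (lowest, median and highest) in controls and 13.30, 13.35 and 13.43 in STZ livers. The difference was -0.06 ± 0.04 (95% interval -0.15 to 0.04) with an adjusted p of 0.548 in limma. Cyp2e1 was brighter than 99.9% of all genes, near the top of the array's range (14.1), where a difference can be compressed. Lect2, a secreted protein and beta-catenin target, measured 11.73, 11.90 and 11.98 in controls and 11.68, 11.97 and 12.16 in STZ livers. STZ livers lay on both sides of the control range, 3 above and 2 below it, and the difference was 0.03 ± 0.07 (adjusted p = 0.878 in limma).

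**Figure D4:**
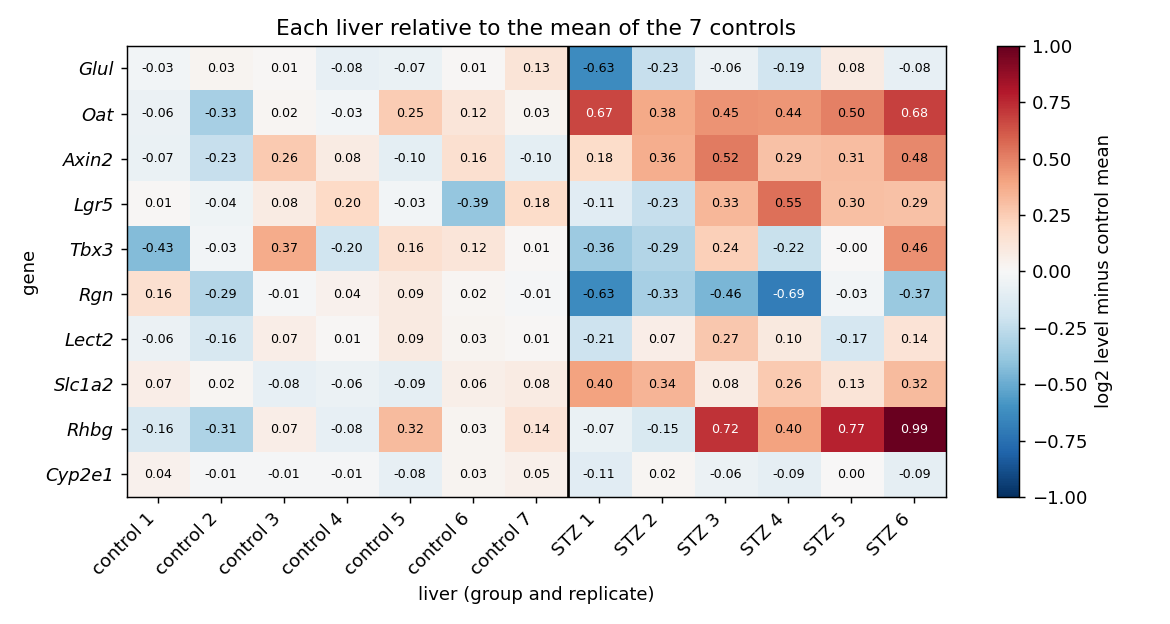
Log2 level of each of the 10 genes (rows) in each of the 13 livers (columns) minus the mean of the 7 controls, with the value in each cell. Oat, Axin2 and Slc1a2 are above 0 and Rgn is below 0 in all 6 STZ livers. Glul, Lgr5, Tbx3 and Rhbg are below 0 in STZ replicates 1 and 2.

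The STZ livers differed among themselves in several of the 10 genes. Relative to the control mean, STZ replicate 1 was at -0.63 for Glul, -0.11 for Lgr5, -0.36 for Tbx3 and -0.07 for Rhbg. STZ replicate 2 was at -0.23, -0.23, -0.29 and -0.15 for the same genes. STZ replicate 6 was at -0.08, 0.29, 0.46 and 0.99, while Oat was at 0.67 in STZ replicate 1 and 0.68 in STZ replicate 6. The liver lowest for Glul and the liver highest for Rhbg were therefore nearly level for Oat.

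Deviations from the group means were correlated for all 45 pairs of the 10 genes over the 13 livers, by permutation within groups (100000 resamples, 2-sided). The highest correlation was that of Tbx3 with Rhbg (r = 0.77, p = 0.00623; rho = 0.82, p = 0.00269), which was 0.73 without the 2 livers farthest from the median of Tbx3. Next came Axin2 with Lect2 (r = 0.65, p = 0.00673; rho = 0.60, p = 0.0207), which was 0.72 without the 2 farthest livers. After Benjamini-Hochberg adjustment of the permutation p over the 45 pairs both r values had p = 0.151, and 0 pairs passed. Glul and Rhbg gave r = 0.65 (adjusted p = 0.450; rho = 0.62, adjusted p = 0.452), but r was -0.03 within controls and 0.76 within STZ livers. The genes most like Glul were the organic anion transporter Slco1b2 (r = 0.96, rho = 0.86), Snhg11 (r = 0.94, rho = 0.79) and Cyp2d9 (r = 0.93, rho = 0.70). Without the 2 livers farthest from the Glul median, r fell to 0.78, 0.70 and 0.53. Livers share the array and its normalisation, and these nearest genes are given as a description.

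Other pericentral genes were higher for 8 of 22 and lower for 1 in limma, at a median of 0.06. This list shares Znrf3, Rnf43 and Nkd1 with the Wnt inhibitors, so the rise of Znrf3 is counted in both. The glutathione transferase Gstm3 (0.88 ± 0.11), the P450 gene Cyp2c37 (0.87 ± 0.09), the aromatic amino acid transporter Slc16a10 (0.74 ± 0.10) and the dicarboxylate transporter Slc13a3 (0.73 ± 0.14) had the largest differences, each higher and with an adjusted p of 0.00362 or less. Gstm and Cyp2c genes have close paralogs, so probes can cross-hybridise and single members are uncertain. The sterol hydroxylase gene Cyp27a1 (-0.29 ± 0.08) fell with an adjusted p of 0.0222 in limma, and 0.0526 without STZ replicate 6. The pericentral P450 gene Cyp1a2 (0.04) and the claudin gene Cldn2 (0.02) did not pass. Across fits that left out 1 array, 8 to 10 genes of this list passed.

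Periportal genes were higher for 9 of 18, with 0 lower, at a median of 0.22, and 7 to 9 passed when 1 array was left out. Etnppl (0.90 ± 0.12), which breaks down phosphoethanolamine, the protease Ctsc (0.84 ± 0.09), the glycine cleavage gene Gldc (0.65 ± 0.14) and the gluconeogenic enzyme Pck1 (0.59 ± 0.10) had the largest differences, each with an adjusted p of 0.00671 or less in limma. Gldc lost its call in the exact permutation test (adjusted p = 0.0577). A second gene of glucose output, G6pc, was at -0.37 ± 0.13 (adjusted p = 0.103 in limma), with all 6 STZ livers below the control mean. With STZ replicates 1 to 4 only, G6pc was the 1 periportal gene lower, at -0.51 with an adjusted p of 0.0332. Of the urea synthesis genes measured in this list, Asl (0.52 ± 0.08), Arg1 (0.31 ± 0.08) and Cps1 (0.16 ± 0.04) rose in limma. Otc (-0.11 ± 0.06) did not pass. Arg1 and Cps1 each passed in 8 of the 13 fits that left out 1 array. The share that rose was 3 of 10 in the Wnt-dependent set, 8 of 22 in the other pericentral list and 9 of 18 here, against 5.09% of all genes. In the fit of the genes brighter than the median gene alone, 1004 of 9969 rose. The difference between these shares was not tested. The hepatocyte marker list shares Alb with the periportal list. Its markers had 0 of 8 higher and 2 lower, Apoa1 (-0.23 ± 0.06, adjusted p = 0.0158 in limma) and Ttr (-0.18 ± 0.05, 0.0402). Ttr passed in 2 of the 13 fits that left out 1 array. The count of these markers was 1 to 3 over the fits that left out 1 array and 0 with the replicate block or a second quantile normalisation. It was 3 without STZ replicate 5, where Tat also passed, as higher (0.25, adjusted p = 0.0154 in limma). The transcription factor Hnf4a was 0.15 ± 0.06 (adjusted p = 0.139 in limma). Of 5 bile duct markers 0 passed in limma, with 2 at an unadjusted p under 0.05 and 0 in the exact permutation test. The smallest p was that of Epcam (0.26 ± 0.08, adjusted p = 0.0644), and the count was 1 without STZ replicate 3 or control replicate 1 and 2 without control replicate 4.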

How the data were processed

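Total RNA of 13 livers was measured on 1 array each, 7 control and 6 STZ, grouped by the sample titles, which call the arrays biological replicates. The authors deposited log2 intensity for each of 35556 probe sets; the submitters' processing notes name RMA and Affymetrix Expression Console 1.2. RMA corrects background, quantile-normalises the arrays and summarises probes, which hides any shift in total RNA per cell. Which annotation and genome build it used is not given in the sources used here. Of the probe sets, 21789 have 1 gene symbol in the platform annotation, and the brightest per gene was kept, which gave 19938 genes. Dim genes were kept.

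The 2 groups were compared in R 4.3.3 with limma 3.58.1 (lmFit, eBayes, 2-sided, 11 residual degrees of freedom) with Benjamini-Hochberg adjustment over all genes at a threshold of 0.05. The exact permutation test used all 1716 splits, whose smallest p is 0.000583. On simulated arrays of 19938 genes with the real means and spreads, limma recovered 86% of genes changed by 0.5 and 99% of those changed by 1 log2 unit, with 9 calls among unchanged genes. Alternatives were leaving out each array, trend and robust variance, array weights, a filter on dim genes, another normalisation, centring, the mean of all probe sets, a replicate block and a subset of STZ arrays. No batch or date is given, and the label numbers of the groups do not overlap, so a batch that followed them cannot be told apart from treatment.

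The genes of the set and the lists were chosen with earlier results of these data known. The text names all 10 genes, up to 4 passing genes with the largest difference per list (or the smallest p where none passed), 11 Wnt pathway and zonation genes whatever their result, and the 3 genes most like a member; single further list genes are given as values. Promoter windows are those of RefSeq (GRCm38.p6).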

Additional observations from a re-analysis of the deposited data

Results flagged for a closer look

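A liver far from the rest of its group, by the gap to its nearest neighbour relative to the range of the group, was found in 4 of 92 screened groups (46 named genes in control and in STZ livers). Chance alone marks about 1 group in 20. Lgr5 in control replicate 6 was 7.54, with the next control at 7.89, and without that liver the STZ difference of Lgr5 was 0.12. Rgn in control replicate 2 was 11.36, with the next control at 11.64, and Rgn passed without that liver. Dvl1 in STZ replicate 4 was 9.18, with the next liver at 8.98. Wnt2 in STZ replicate 1 was 6.69, with the next at 7.13.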

How the results depend on the processing

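The calls of Oat, Axin2 and Slc1a2, and the absence of a call for Glul, Lgr5, Tbx3, Lect2 and Cyp2e1, held in all 13 fits that left out 1 array and under all other settings tried. Rgn kept its call in the 13 fits and missed it in the exact permutation test (-0.42, adjusted p = 0.0531). Rhbg passed with array weights (0.51, adjusted p = 0.0485), with the replicate number as a block (0.46, adjusted p = 0.0242) and in 2 of the 13 fits that left out 1 array, whose differences ranged from 0.33 to 0.56. With STZ replicates 1 to 4 only Rhbg was 0.22 (adjusted p = 0.456). Among all genes 1819 passed, 1437 in the exact test and 1399 to 2168 when 1 array was left out. The titles number the replicates of both groups, but nothing states that equal numbers share a litter or day, and same-numbered arrays correlated at -0.0865 to 0.187 in their deviations. The block therefore pairs by number only, and it leaves out control replicate 7, which has no STZ liver of its number. With it 5 of the 10 genes and 1256 of all genes passed. Only 1 of the 6 STZ arrays correlated best with its own number. No probe set names a gene of the set among several symbols, so that alternative gave no value. Glul from its other probe set was added after seeing the data and stayed without a call. Of the other named genes, 67 of their values under the alternatives lost and 10 gained a call, and none changed sign while called. Signal limits the dim genes: arrays compress their differences.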
